A study of Mus musculus with 8 samples.

Results

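The genes described here are Dcxr, Ephx1 and 8 antioxidant enzymes that are commonly used as readouts of the transcription factor NRF2, namely Nqo1, Hmox1, Gclc, Gclm, Txnrd1, Srxn1, Gstm1 and Gsta4. They were taken as all probe sets annotated to 1 of these symbols alone, which gave 19 of 20393 probe sets and 10 of 12394 genes. Dcxr and Ephx1 were picked because they were higher with hairpins against Fbxl19 than with a control hairpin on these same arrays, so their knockdown differences are described without a test. The other 8 were picked for their known function, with earlier results of these data in view. The data came from 8 Affymetrix microarrays of mouse J1 embryonic stem cells (ES cells). For 6 of the arrays the cells were kept undifferentiated, on gelatin with serum and leukemia inhibitory factor. There were 4 groups of 2 arrays: cells with a control hairpin (shControl), cells with Fbxl19 shRNA1, cells with Fbxl19 shRNA2, and a differentiated group sampled at day 4. The sources used here do not give how the hairpins were delivered, how the cells were differentiated, whether day 4 cells carried a hairpin or whether replicates came from separate cultures. The p-values therefore rest on the spread between arrays of a group, and this may be technical.

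NRF2, encoded by Nfe2l2, is held in the cytoplasm and marked for degradation by KEAP1. Oxidants and electrophiles release it, and it then enters the nucleus, pairs with small MAF proteins and binds antioxidant response elements in the promoters of genes that make glutathione, reduce quinones and recycle thioredoxin. Dcxr encodes dicarbonyl and L-xylulose reductase, a short-chain dehydrogenase that reduces reactive dicarbonyl compounds and the sugar L-xylulose with NADPH. Ephx1 encodes the microsomal epoxide hydrolase, which opens epoxides to diols and is often listed among genes induced by NRF2 and by xenobiotic receptors. Fbxl19, the gene targeted, belongs to the F-box family, and its CXXC zinc finger binds unmethylated CpG DNA.

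Because the comparison asks whether Dcxr and Ephx1 moved with genes of the antioxidant response, the 250 bases before the start site are shown for these 2 genes and for Srxn1 and Gclm, a pair of the enzymes whose windows hold a core of the response element. The sequences are those of RefSeq on build GRCm38.p6, written 5′ to 3′ on the strand of the gene. Capitals mark matches to TGACNNNGC or TGAGNNNGC on either strand, which are the letters searched. The windows are chr11:120727285-120727534 on the minus strand for Dcxr, chr1:181017570-181017819 on the minus strand for Ephx1, chr2:152105274-152105523 on the plus strand for Srxn1 and chr3:122245307-122245556 on the plus strand for Gclm.

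Dcxr: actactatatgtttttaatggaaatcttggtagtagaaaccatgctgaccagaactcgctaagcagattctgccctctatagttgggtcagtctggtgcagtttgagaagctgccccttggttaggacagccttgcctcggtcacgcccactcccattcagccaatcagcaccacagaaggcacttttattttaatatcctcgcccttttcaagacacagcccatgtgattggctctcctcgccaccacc
Ephx1: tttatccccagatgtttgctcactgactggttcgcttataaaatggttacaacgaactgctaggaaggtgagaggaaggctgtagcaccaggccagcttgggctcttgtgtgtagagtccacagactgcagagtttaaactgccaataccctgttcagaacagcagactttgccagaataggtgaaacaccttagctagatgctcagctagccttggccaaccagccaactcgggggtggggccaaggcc
Srxn1: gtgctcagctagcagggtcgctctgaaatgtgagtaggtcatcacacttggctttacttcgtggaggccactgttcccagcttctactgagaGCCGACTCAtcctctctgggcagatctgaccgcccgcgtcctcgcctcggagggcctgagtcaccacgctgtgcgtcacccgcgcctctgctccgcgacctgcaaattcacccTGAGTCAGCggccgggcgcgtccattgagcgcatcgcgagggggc
Gclm: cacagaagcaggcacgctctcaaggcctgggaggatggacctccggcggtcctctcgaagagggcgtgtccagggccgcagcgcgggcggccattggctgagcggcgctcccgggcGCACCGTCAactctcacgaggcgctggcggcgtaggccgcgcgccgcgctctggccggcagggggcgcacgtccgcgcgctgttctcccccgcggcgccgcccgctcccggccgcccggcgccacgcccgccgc

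Neither the Dcxr nor the Ephx1 window held either motif. The windows of Nqo1 and Gstm1 held none either, so this absence does not set Dcxr and Ephx1 apart from the other members. Srxn1 held TGAGNNNGC at 45 bases before the start site on the gene's strand and at 158 bases on the opposite strand, and Gclm held TGACNNNGC at 134 bases on the opposite strand. Among all 32851 windows of this length, 10.2% held TGACNNNGC, 14.4% held TGAGNNNGC and 23.0% held at least 1 of them, so a match is common. Of the 10 windows of 7 matched members, 3 held 1 or more. The third is 1 of the 3 Txnrd1 windows. The windows of Dcxr and Ephx1 held 5 and 3 of the CpG dinucleotides that a CXXC finger binds, which is in the ordinary range: 49.6% of all windows held at most as many as Dcxr and 37.8% at most as many as Ephx1. Srxn1 and Gclm had 21 and 41, above the upper quartile of 16. A match or its absence describes these letters in this window only.

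The arrays were labelled as stem cells, and in the 3 undifferentiated groups all 14 pluripotency markers lay above the median probe set of every array. The same held for all 14 on day 4, so this measure does not set the undifferentiated groups apart. Of 13 fibroblast markers, 7 in shControl and 8 with each hairpin had group means under each array's lower quartile, and 1, Thy1, lay above the medians. Replicate 2 of shControl stood apart in its distribution, with a lower quartile of 3.79 and a median of 5.81. The difference between the 3′ and 5′ actin control probe sets, a sign of RNA quality, was lowest in shControl, at 0.54 and 0.60. It was 0.70 to 0.76 over the hairpin arrays, and the day 4 arrays had 0.65 and 0.73. This difference moved with each comparison against shControl, and its part in the results was not tested. Fbxl19 itself had no annotated probe set here, and its knockdown was not measured.

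Dcxr was higher with both hairpins and, to a similar level, on day 4 of differentiation. Its single probe set read 6.53 and 6.85 on the shControl arrays on the log2 scale, 8.37 and 8.14 with shRNA1, 7.97 and 7.94 with shRNA2, and 8.17 and 8.06 on day 4. Both shControl arrays were the lowest of the 8 by more than 1 log2 unit, while the day 4 arrays lay among those of the hairpins. In order of level the groups were shRNA1 (8.26 ± 0.16, SD, n = 2), day 4 (8.12 ± 0.07), shRNA2 (7.96 ± 0.03) and shControl (6.69 ± 0.23). Day 4 overlapped shRNA1 and lay just above both shRNA2 arrays. The difference of the mean of both hairpins from shControl was 1.42 ± 0.13 (SE from limma, 4 against 2 arrays), a 2.68-fold higher level, and it ranged from 1.26 to 1.58 when each array was left out in turn, both ends being reached without one of the shControl arrays.

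Ephx1 was also higher with both hairpins, but on day 4 it was the lowest of all groups. The Ephx1 probe set read 6.57 and 6.43 in shControl, 7.80 and 7.65 with shRNA1, 7.44 and 7.56 with shRNA2, and 4.99 and 5.07 on day 4. No group overlapped another. The order was shRNA1 (7.72 ± 0.11, SD, n = 2), shRNA2 (7.50 ± 0.09), shControl (6.50 ± 0.10) and day 4 (5.03 ± 0.06). The knockdown difference of Ephx1 was 1.11 ± 0.12 (SE), 2.16-fold, with a range of 1.04 to 1.18 on leaving out each array.

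**Figure D1:**
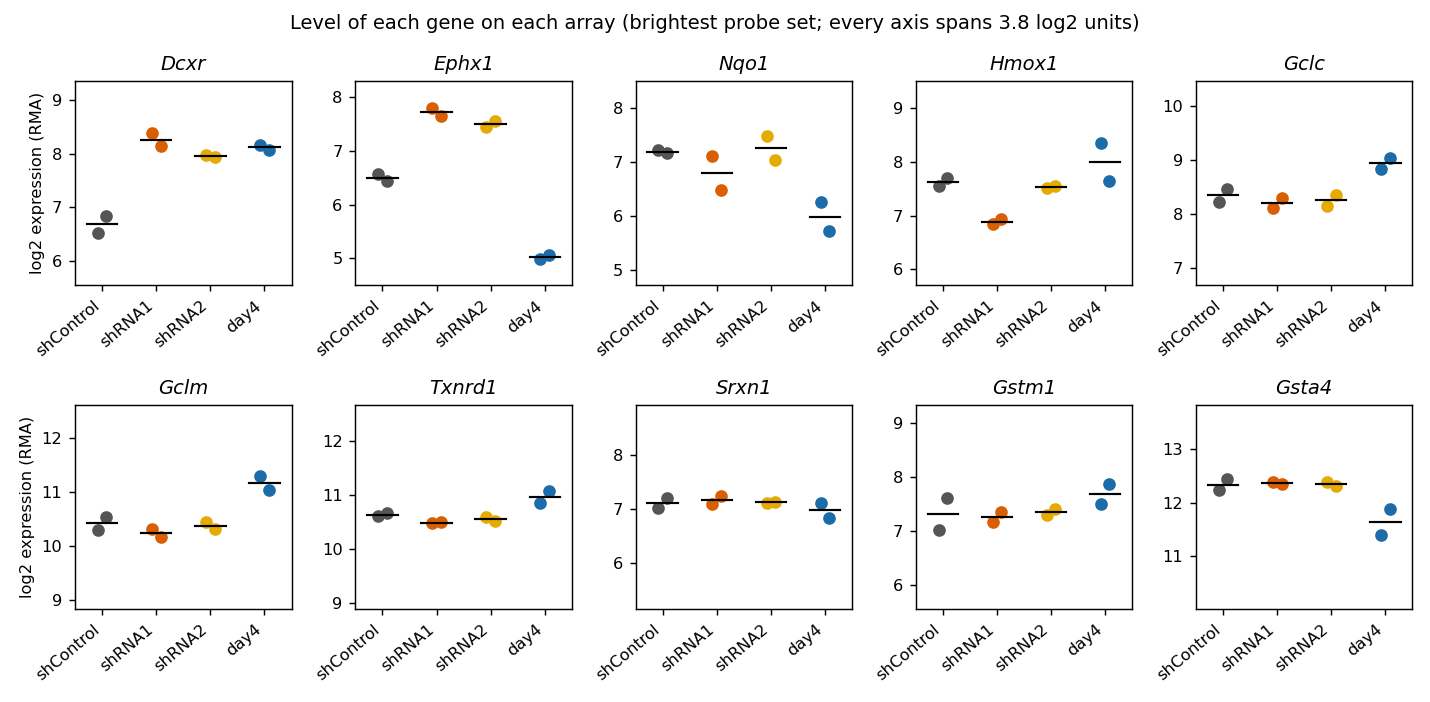
Level of each of the 10 genes (log2, brightest probe set) on each of the 8 arrays, 2 dots per group with the mean as a line; every panel spans the same number of log2 units. Dcxr and Ephx1 are higher with both hairpins than in shControl, and on day 4 Dcxr stays high (8.12 on average) while Ephx1 drops to 5.03.

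None of the other 8 enzymes passed the test in knockdown, and their highest difference was 0.03. A gene was called when its limma p, adjusted by Benjamini and Hochberg over all 12394 genes, was under 0.05. In the mean of both hairpins against shControl 0.0726% of genes were called, and of these 8 none was (1 at an unadjusted p under 0.05, that of Hmox1), which at such a background says little by itself. Their differences ran from -0.42 for Hmox1 to 0.03 for Srxn1 with a median of -0.11, beside a median of 0.00 over all genes, and 6 of 8 lay below 0. Without shControl replicate 2, the array that stood apart, the median was 0.0095. The highest upper end of their 95% intervals was 0.42, for Gstm1, so a rise as large as that of Dcxr or Ephx1 lay outside the interval of each of the 8. Dcxr and Ephx1 were picked on this contrast, where their rises ranked 6 and 19 of 12394 genes. Genes chosen otherwise would thus mostly fall short of them. On the brightest probe set of each gene, the arrays of 1 of the 8, Txnrd1, did not overlap between knockdown and control. They lay on the lower side, where 10.6% of all genes lay wholly lower.

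Among the enzymes of glutathione synthesis, Gclc encodes the catalytic and Gclm the modifier subunit of glutamate-cysteine ligase, the first step. Gclm read 10.30 and 10.53 in shControl, 10.32 and 10.16 with shRNA1, and 10.43 and 10.32 with shRNA2, and its knockdown difference was -0.11 ± 0.13 (adjusted p = 0.850). For Gclc the brighter probe set read 8.21 and 8.47 in shControl and spanned 8.10 to 8.36 with the hairpins, with a difference of -0.12 ± 0.14 (adjusted p = 0.834). Its other probe set gave -0.04 ± 0.12. Knockdown and control arrays thus overlapped for both subunits.

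Nqo1 encodes the quinone reductase that is the classical NRF2 readout. It read 7.23 and 7.16 in shControl, 7.11 and 6.48 with shRNA1, and 7.49 and 7.03 with shRNA2. The arrays within each hairpin differed by more than the mean of both hairpins did from shControl. That mean differed by -0.16 ± 0.22 (adjusted p = 0.860). Hmox1 encodes heme oxygenase, which breaks down heme and is induced by NRF2 once the repressor BACH1 leaves its promoter. It read 7.55 and 7.71 in shControl, 6.85 and 6.93 with shRNA1, and 7.52 and 7.55 with shRNA2. Both shRNA1 arrays were the lowest, while those of shRNA2 lay at or just below the lower control. The difference with shRNA1 was -0.74 ± 0.21 (adjusted p = 0.312), and without either day 4 array it was called at the same size (adjusted p = 0.0351).

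Txnrd1, the cytosolic thioredoxin reductase, read 10.61 and 10.66 in shControl, 10.48 and 10.49 with shRNA1, and 10.59 and 10.52 with shRNA2 on its brightest probe set, a difference of -0.12 ± 0.12 (adjusted p = 0.803). Its other 2 probe sets gave -0.05 and 0.14. Srxn1, sulfiredoxin, which restores overoxidized peroxiredoxins, read 7.01 and 7.21 in shControl and 7.08 to 7.25 in knockdown. The Srxn1 difference was 0.03 ± 0.13 on the brightest of its 4 probe sets, and 0.11, 0.0024 and -0.31 on the others. No probe set of these genes was called.

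The glutathione transferases Gstm1 and Gsta4 attach glutathione to electrophiles, Gsta4 with a preference for the lipid peroxidation product 4-hydroxynonenal. Gsta4 read 12.24 and 12.43 in shControl and 12.31 to 12.39 in knockdown, a difference of 0.02 ± 0.15 (adjusted p = 0.979). Gstm1 was measured by 4 probe sets, 2 of them of the kind whose probes can also match related transcripts, so that levels may include other mu-class transferases. The brightest, one of that kind, read 7.01 and 7.61 in shControl and 7.16 to 7.40 in knockdown, and differed by -0.0048 ± 0.19 (adjusted p = 0.996). On these probe sets the controls enclosed the knockdown arrays for both genes. The other Gstm1 probe sets gave -0.11 ± 0.15, -0.08 ± 0.12 and -0.29 ± 0.15, and none was called. The last of them read 6.23 and 6.24 in shControl and 5.68 to 6.14 in knockdown. It thus lay wholly lower, where 10.6% of all genes did on their brightest probe set.

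**Figure D2:**
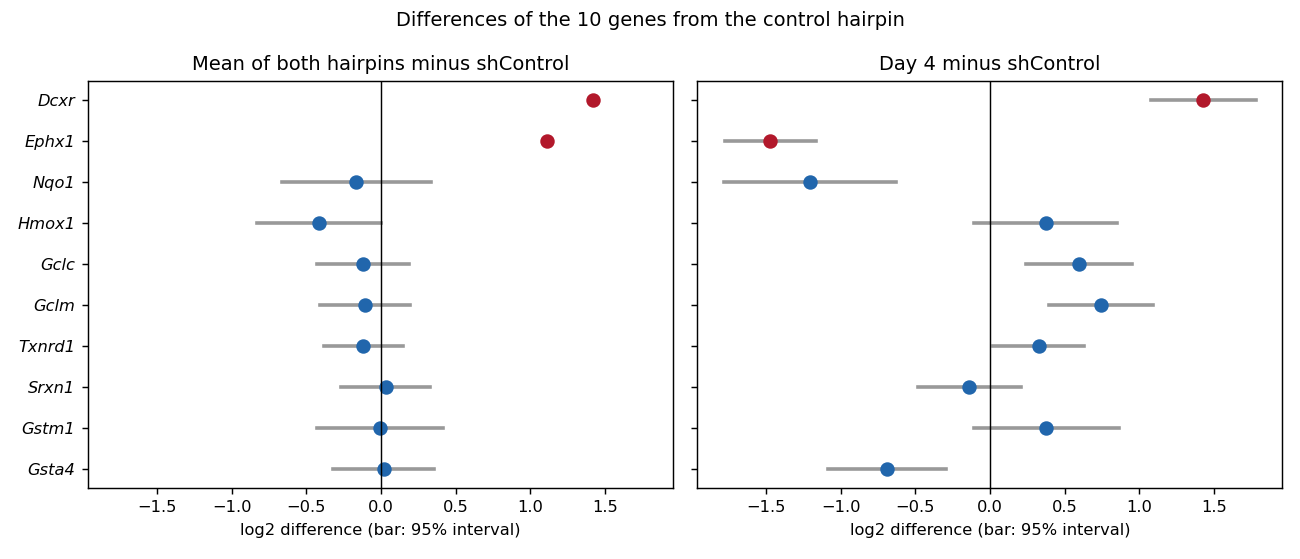
Difference of each of the 10 genes from shControl (log2), for the mean of both hairpins (left) and day 4 (right), with 95% intervals from limma as bars; Dcxr and Ephx1, which were picked on the left-hand contrast, carry no bar there. In knockdown the other 8 lie between -0.42 and 0.03, and on day 4 they spread to both sides.

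The hairpins were compared directly, without the control arrays that entered the choice of Dcxr and Ephx1. Dcxr was lower with shRNA2 than with shRNA1 by -0.30 ± 0.16 and Ephx1 by -0.22 ± 0.13, and neither passed the test (limma adjusted p = 1.00 for both). The arrays of the hairpins did not overlap for either gene, which held for 43.6% of all genes. Hmox1 had the largest difference of the 10, being higher with shRNA2 by 0.65 ± 0.21 (adjusted p = 0.646), followed by Nqo1 with 0.47 ± 0.25. Of the 10 genes none was called (1 at an unadjusted p under 0.05, Hmox1), where 0.105% of all genes were. Against shControl, Dcxr had 1.57 ± 0.16 with shRNA1 and 1.27 ± 0.16 with shRNA2, and Ephx1 had 1.22 ± 0.13 and 1.00 ± 0.13. These comparisons share the control arrays. In them 0.242% and 0% of all genes were called (1218 and 632 at an unadjusted p under 0.05), and of the other 8 members none with either hairpin (1 and 0 at an unadjusted p under 0.05).

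On day 4 of differentiation the 10 genes moved in both directions. Dcxr, Gclm and Gclc rose against shControl, and Ephx1, Nqo1 and Gsta4 fell, which is 6 of 10 genes where 16.4% of all genes were called, 7.67% higher and 8.73% lower. Dcxr rose by 1.43 ± 0.16 (SE, 2 against 2 arrays; limma adjusted p = 0.000366). Ephx1 fell by 1.47 ± 0.13 (adjusted p = 0.000147). The shControl arrays also entered the choice of these 2 genes as the low side, which favours a rise and works against a fall. Both calls held under all 16 alternatives of processing and of arrays left out, with 1.27 to 1.59 for Dcxr and -1.54 to -1.40 for Ephx1 over the arrays left out.

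Both subunits of glutamate-cysteine ligase rose together on day 4. Gclm read 11.29 and 11.03 on day 4, above its 6 undifferentiated arrays, and rose by 0.74 ± 0.15 (adjusted p = 0.0109). Gclc read 8.84 and 9.03, again above all undifferentiated arrays, and rose by 0.59 ± 0.16 (adjusted p = 0.0325), or by 0.94 ± 0.13 on its other probe set (adjusted p = 0.00179 in a fit of every probe set). The call of Gclc on the brighter probe set was lost without shControl replicate 1 (0.47), without shControl replicate 2 (0.72), without day 4 replicate 2 (0.50) and without any single knockdown array (0.59), with adjusted p of 0.0518 to 0.116. Gclm lost its call without shControl replicate 1 (0.63, adjusted p = 0.0558).

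Nqo1 and Gsta4 fell on day 4. Nqo1 read 6.25 and 5.72, below every undifferentiated array, and fell by 1.21 ± 0.25 (adjusted p = 0.0122). The call was lost without shControl replicate 1 (-1.17, adjusted p = 0.0720) or replicate 2 (-1.24, adjusted p = 0.0867). Gsta4 read 11.40 and 11.88 and fell by 0.69 ± 0.17 (adjusted p = 0.0263). Its call was lost without shControl replicate 1 (-0.79) or replicate 2 (-0.59), without day 4 replicate 1 (-0.45) and without either shRNA1 array (-0.69), with adjusted p of 0.0526 to 0.149.

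The 4 remaining members were not called on day 4. Hmox1 read 8.35 and 7.65, so that 1 array was the highest of the 8 and the other lay between the controls, and it had 0.37 ± 0.21 (adjusted p = 0.287). Without day 4 replicate 2 it was called, with 0.73 (adjusted p = 0.0103). Txnrd1 had 0.33 ± 0.13 (adjusted p = 0.144) with both day 4 arrays above the controls, and its other probe sets gave -0.11 and -0.01. Gstm1 had 0.38 ± 0.21 (adjusted p = 0.287), from 0.077 without shControl replicate 1 to 0.68 without shControl replicate 2. Srxn1 had -0.14 ± 0.15 (adjusted p = 0.609).

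The wider pathway was read from 10 lists of detoxification and antioxidant genes, with 142 measured genes beside the 10. In the mean of both hairpins none was called. At an unadjusted p under 0.05 there were 17, or 11.97%, beside 8.42% of all genes, and the median difference was 0.01. The NRF2 pathway regulators had a median of -0.02 over 11 measured genes of 12, with Mafg, a small MAF partner, at -0.34 ± 0.22, the repressor gene Bach1 at 0.18 ± 0.14 and Dpp3 at -0.16 ± 0.15. A further 21 genes known as NRF2 targets had a median of 0.06. Those with the largest differences were the carbonyl reductase gene Cbr3 with -0.47 ± 0.23, the prostaglandin reductase gene Ptgr1 with 0.38 ± 0.13 and Abhd4 with 0.36 ± 0.15. Of 22 glutathione transferase genes, Gstk1 had 0.44 ± 0.30, Gsta2 -0.38 ± 0.11 and Gstt1 -0.36 ± 0.15, with a list median of 0.01.

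One gene of these lists came near the size seen for Dcxr and Ephx1. Gpx3, which encodes the secreted glutathione peroxidase, read 6.34 and 6.18 in shControl, 7.45 and 7.23 with shRNA1, 7.34 and 7.09 with shRNA2, and 6.90 and 7.22 on day 4. Its knockdown and control arrays did not overlap. The difference was 1.02 ± 0.15 and did not pass (adjusted p = 0.0708). The next in the glutathione list were Oplah with 0.41 ± 0.24 and Glrx2 with 0.25 ± 0.14. Among thioredoxin and peroxide genes, Txnip, the inhibitor of thioredoxin, had 0.56 ± 0.14, Txnrd3 -0.46 ± 0.16 and the sestrin gene Sesn2 0.33 ± 0.22.

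Genes of the routes in which Dcxr and Ephx1 act had list medians near 0. In the glucuronate-xylulose route, in which Dcxr reduces L-xylulose, the median of the 9 other genes was -0.09, with Cryl1, whose enzyme acts on gulonate, at -0.46 ± 0.15, the xylulokinase gene Xylb at -0.40 ± 0.13 and Miox, the inositol oxygenase gene, at -0.15 ± 0.21. Among 29 carbonyl, quinone and aldehyde enzyme genes the median was -0.02, with Dhrs7 at 0.60 ± 0.20 and Nqo2 at -0.40 ± 0.15. Epoxide hydrolases and microsomal oxidation genes had a median of 0.09 over 15 genes, with Cyp51 at -0.45 ± 0.12, Cyp2s1 at 0.39 ± 0.32 and Ephx2, the soluble epoxide hydrolase, at 0.34 ± 0.33. Genes of the xenobiotic receptors AhR, CAR and PXR had 0.12 over 12 genes, with Aldh3a1 at -0.35 ± 0.16, Cyp2b10 at 0.32 ± 0.18 and Arnt at -0.31 ± 0.18. Among 13 heme and iron genes Alas2, of heme synthesis, had 0.46 ± 0.14 and the biliverdin reductase gene Blvrb 0.30 ± 0.15.

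**Figure D3:**
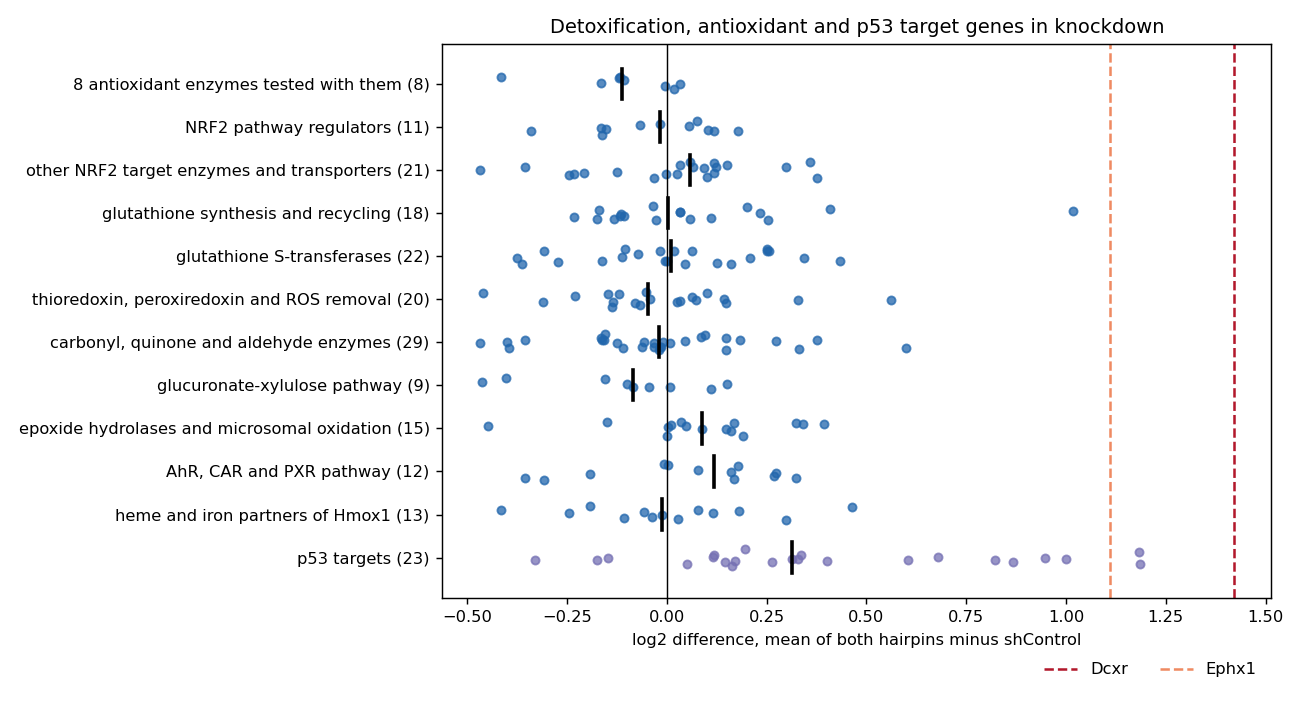
Knockdown difference (log2, mean of both hairpins minus shControl) of each gene in 10 detoxification lists, in the 8 enzymes described with Dcxr and Ephx1 and in the p53 targets, with list medians as black bars and the number of genes in brackets; Dcxr and Ephx1 are dashed lines and are left out of the lists. The detoxification medians lie between -0.11 and 0.12, and the gene farthest to the right in these lists is Gpx3 at 1.02.

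On day 4 the same 142 genes split evenly, 19 rising and 18 falling, together 26.1% of them where 16.4% of all genes were called. Rises ran from 0.49 to 1.97 and falls from -0.53 to -3.41, with a largest adjusted p of 0.0455. Among regulators Bach1 rose by 0.90 ± 0.16. Of other NRF2 targets, Me1, the malic enzyme that supplies NADPH, rose by 1.21 ± 0.16 and Abhd4 rose, while Akr1b8, an aldose reductase family gene, fell by 2.47 ± 0.50 and Gpx2 fell by 2.06 ± 0.24, along with Aldh3a1. In glutathione metabolism Gpx3 and Glrx2 rose, and Gss and Hagh fell. Of the glutathione transferase list, Gstm2, Gstm5, Gstt2, Gsto1 and Mgst1 rose, and Gsta2, Gsta3, Gsta4, Gstm4, Gstt1 and the prostaglandin E synthase gene Ptges fell. Of these, Gsta3 had the largest change and fell by 3.41 ± 0.19.

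Of 20 measured thioredoxin and peroxide genes, 4 were called lower on day 4 and 1 higher, beside 8.73% and 7.67% of all genes. Their median was -0.04, and 10 lay above 0. Txnip fell by 3.21 ± 0.16 and Sod2, the mitochondrial superoxide dismutase, by 1.42 ± 0.15, along with Prdx3 and Txnrd3, and Sesn3 rose by 1.89 ± 0.15. Of the carbonyl and quinone list Aldh9a1 and Dhrs3 rose, and Nqo2, Dhrs1 and Cyb5r3 fell beside Nqo1, Akr1b8 and Aldh3a1. The receptor gene Ahr rose by 1.97 ± 0.21, and of its known targets Cyp1b1 and Tiparp rose, Aldh3a1 fell by 0.87 ± 0.19 and Cyp1a1, with 1.12 ± 0.39, did not pass (adjusted p = 0.0874). Also called were Khk, Alas2 and Cyp51, which rose, and Cryl1, which fell. The levels of Cyp1b1 in shControl and Gsta2 on day 4 were under each array's lower quartile, where the size of a change is uncertain.

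Likeness to Dcxr and to Ephx1 was measured as Pearson's r of log2 levels among the 6197 genes with at least the median spread, as a description. None of the other 8 enzymes was among the 5 genes most like either, which says little because so few of 6197 genes can be. Over the 6 undifferentiated arrays, which fall into 2 control and 4 knockdown arrays so that r mostly mirrors that contrast, the genes most like Dcxr were Cdkn1a (r = 0.996), Cbs (0.990), Pttg1 (0.988), Adap2 (0.987) and Sdc4 (0.985). Those most like Ephx1 were Ccng1 (0.993), C2cd2 (0.989), Sdc4 (0.985), Tspyl4 (0.985) and Cdkn1a (0.984). Dcxr and Ephx1 themselves had r = 0.974. Both were picked as higher in knockdown on these arrays, which favours a high r between them. For the other 8 enzymes r ran from -0.85 (Txnrd1) to 0.29 (Gsta4) with Dcxr. With Ephx1 it ran from -0.92 (Txnrd1) to 0.13 (Srxn1). Cdkn1a encodes the p21 inhibitor of cyclin-dependent kinases and Ccng1 encodes cyclin G1, both textbook targets of p53. Cbs makes cystathionine, a step towards cysteine and hence glutathione.

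Over all 8 arrays Dcxr and Ephx1 parted, with r = 0.10. With the other 8 enzymes r ran from -0.40 (Nqo1) to 0.23 (Gstm1) for Dcxr and from -0.93 (Txnrd1) to 0.84 (Gsta4) for Ephx1. Most like Dcxr were then Grin2b (r = 0.967), Cdkn1a (0.957), Ercc5 (0.950), Lgals1 (0.941) and Lcp2 (0.935), and most like Ephx1 were Hormad1 (0.994), Cox6b2 (0.987), Sertad3 (0.987), Cemip2 (0.985) and Mtif2 (0.980). Hormad1, a gene of meiotic chromosome axes, had group means of 4.57 in shControl, 5.58 with shRNA1, 5.33 with shRNA2 and 3.27 on day 4, the same order as Ephx1. Cdkn1a read 8.36 and 8.42 in shControl, 9.19 and 9.08 with shRNA1, 9.03 and 8.97 with shRNA2, and 8.86 and 8.91 on day 4. The 6 undifferentiated arrays stood in the same order for Cdkn1a as for Dcxr, and the Cdkn1a day 4 arrays lay between shControl and the hairpins. The Cdkn1a difference was 0.68 ± 0.11 in knockdown (adjusted p = 0.0918) and 0.50 ± 0.13 on day 4 (adjusted p = 0.0266).

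**Figure D4:**
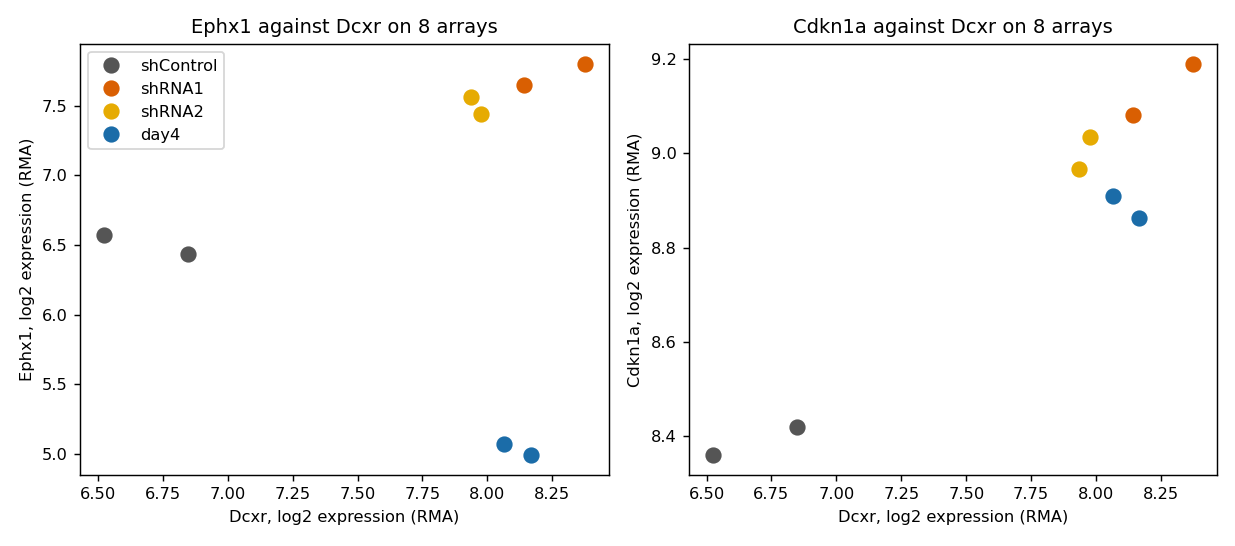
Level of Ephx1 (left) and Cdkn1a (right) against Dcxr (log2) on the 8 arrays, coloured by group. Knockdown arrays are high in all 3 genes, while the day 4 arrays are high in Dcxr and Cdkn1a and lowest in Ephx1.

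2 p53 targets rose in the same comparison. Over 23 measured genes their median knockdown difference was 0.31, and 20 lay above 0, beside 6080 of all 12394 genes. Ccng1, with 1.18 ± 0.12 (adjusted p = 0.0122), and Btg2, with 0.95 ± 0.12 (adjusted p = 0.0462), were called, where 0.0726% of all genes were. Both calls were lost when any 1 of the 6 undifferentiated arrays was left out, with 1.07 to 1.29 for Ccng1 (adjusted p of 0.0621 to 0.269) and 0.84 to 1.05 for Btg2 (adjusted p of 0.156 to 0.289). Ccng1 also lost its call with the mean of its probe sets (0.89, limma adjusted p = 0.0563). Btg2 lost it when every probe set was tested (0.95, limma adjusted p = 0.0620). Relative to the shControl mean the list's median was -0.02 and 0.02 on the shControl arrays, 0.34 and 0.30 with shRNA1, 0.58 and 0.33 with shRNA2, and 0.48 and 0.38 on day 4. The list was chosen with results of these arrays known, and its relation to Dcxr and Ephx1 was not tested.

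Genes beside Dcxr and Ephx1 on their chromosomes were not called in knockdown. Dcxr lies on chromosome 11 between Aspscr1, Cenpx and Rac3 on one side and Cbr2, Rfng and Gps1 on the other, in the order of measured genes. Their knockdown differences ran from -0.23 for Aspscr1 to 0.22 for Cenpx. Cbr2 is a carbonyl reductase gene next to Dcxr and related to it, and its level, 3.33 to 3.61 over the 8 arrays, was under each array's lower quartile. Around Ephx1 on chromosome 1 lie Acbd3, Lefty1, Tmem63a, Nvl, Cnih4 and Wdr26, whose differences ran from -0.23 for Nvl to 0.07 for Tmem63a. Of these 12 genes none passed limma's test in knockdown (smallest adjusted p = 0.654, and 0 at an unadjusted p under 0.05). Only 0.0726% of all genes were called there, so this says little by itself. On day 4 Rac3 rose by 0.77, with Dcxr, and Aspscr1 and Cenpx fell (limma adjusted p = 0.0461, 0.00537 and 0.0206), where 16.4% of all genes were called.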

How the data were processed

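RNA of 8 mouse ES cell samples was hybridised to Affymetrix Mouse 430A 2.0 arrays. The authors deposited log2 values, and the submitters' processing notes name RMA. Its version and whether all arrays were normalized jointly are not given. Such summaries shrink differences of dim probe sets. The number of arrays, 2 a group, limits the precision. Of 22690 probe sets, 20393 had 1 gene symbol, 691 had several and 1606 had none. Controls made up 64 of the 22690 and are counted within these classes. For each of 12394 genes the brightest probe set, by its mean level, was used, without a filter on low values. Group means over all 8 arrays were fitted with limma 3.58.1 (lmFit and eBayes, R 4.3.3), tested on simulated data, and p-values were adjusted by Benjamini and Hochberg over all genes, with a threshold of 0.05. Groups and replicates came from the sample titles. The descriptions of knockdown samples name a different Fbxl gene from 1 sample to the next, and the titles were followed. Named were all members, the 3 list genes with the largest knockdown difference, every detoxification gene called on day 4, the 5 genes most like Dcxr and Ephx1, and their neighbours. The p53 genes Ccng1 and Btg2 and the levels of Gpx3, Hormad1 and Cdkn1a were singled out after values were seen. The members and lists were chosen with earlier results of these data known. Alternatives changed the probe set rule, the filter, the fit, the scaling, the replicate block and the arrays. Promoters came from RefSeq (GRCm38.p6) for 7 of 10 members. Gene neighbours came from RefSeq names and order.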

Additional observations from a re-analysis of the deposited data

How the results depend on the processing

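Of 512 values of the members under alternatives, 471 kept their direction and side of the threshold. Leaving out 1 array moved the knockdown difference of Dcxr over 1.26 to 1.58, the number called with shRNA1 among the 8 members other than Dcxr and Ephx1 over 0 to 1, and the number called on day 4 among all 10 over 2 to 6, with 2 without shControl replicate 1 and 3 without replicate 2. When the other groups were kept out of the fit, 3 members were called on day 4 (Dcxr, Ephx1 and Nqo1). Small differences changed sign. In knockdown Gclc ran over -0.25 to 0.010, Gclm over -0.22 to 0.0085, Srxn1 over -0.066 to 0.13, Gstm1 over -0.31 to 0.30 and Gsta4 over -0.079 to 0.12 with 1 array left out, Nqo1 with shRNA2 over -0.16 to 0.30, and Srxn1 on day 4 over -0.28 to 0.0092. Srxn1 had -0.042 as the mean of its probe sets, and Gstm1 had 0.044 with quantile normalization repeated and 0.021 with arrays centred. The cause was not tested. Genes called in knockdown numbered 9, 54 with only the compared groups and 22 with the replicate number as a block, and with shRNA1 30, 113 and 49, and with shRNA2 0, 40 and 0. On day 4 they were 2033, 1144 and 2307. The replicate numbers were not taken as pairs. Correlations of replicate differences ran from -0.078 (day 4 with shRNA2) to 0.504 (shRNA1 with shRNA2) over pairs of groups. They were 0.26 and 0.23 for shControl with shRNA1 and with shRNA2. Hairpin arrays of the same replicate number thus moved partly together, which the main fit did not model. The block changed no call of a member.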
